A study of Mus musculus with 6 samples.

Results

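The 39 genes described here encode proteins of fibroblasts, stellate cells and the extracellular matrix, and were chosen by name from a list of collagens, proteoglycans, matrix glycoproteins, cross-linking enzymes, matrix proteases and their inhibitors, contractile and cytoskeletal proteins, receptors and growth factors. All 39 had a probe that passed the filter on dim probes, so all 39 stand among the 14169 genes tested. For 38 of them the probe was well above background on all 6 arrays, and the exception was Tnc, with 5 arrays.

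The samples were whole pancreases from newborn C57BL/6N mice (postnatal day 0.5), with 2 arrays for each of 3 genotypes. Spink3-/- mice lack the secreted trypsin inhibitor of acinar cells, and by the series' design all of their acinar cells die in a non-apoptotic way that involves autophagy. Spink3-/-XKI/+ mice share that deletion and carry in addition 1 copy of an allele named XKI, whose nature the labels do not state. Part of their acinar cells are normal and the rest die as in Spink3-/-. Spink3+/+ mice are the wild type. The labels do not say that samples of 1 genotype are from different animals, so p-values here rest on a spread between samples that may be technical only.

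Fibroblasts and stellate cells are the mesenchymal cells that lay down and remodel the matrix between acini, ducts and vessels. Pancreatic stellate cells store vitamin A when quiescent and, after injury, become myofibroblast-like cells that make smooth muscle actin and fibrillar collagen, with transforming growth factor beta and platelet-derived growth factor among the signals that drive them. Smooth muscle cells of vessels, ducts and the gut wall make the same contractile proteins. In bulk tissue, fewer cells of a type and less RNA per cell cannot be told apart.

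Levels are given as log2 of the processed signal over the array's 75th percentile, so 0 is that percentile and 1 unit is a doubling, and the 2 values of a genotype are in the order of replicate 1 and replicate 2. Fibroblast genes could be read in these tissues: Col1a1, Col3a1 and Dcn, defining genes of fibroblasts, were above background on every array, with levels from 6.68 to 7.40. Spink3 itself had levels of 3.25 and 2.95 in Spink3-/- and 2.64 and 2.34 in Spink3-/-XKI/+, against 9.84 and 10.26 in Spink3+/+. The arrays correlated with each other at 0.970 to 0.984 across the tested genes, and their 75th percentile of signal lay between 111 and 155. With so few arrays the precision of all values is limited.

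Promoter sequence is shown for 4 members that mark the range of behaviour described below: Acta2 and Des, contractile genes whose replicates lay far apart in both Spink3-deficient genotypes, Timp1, which separated both Spink3-deficient genotypes from Spink3+/+, and Col1a2, a collagen that hardly differed. Each line is the 250 bases before the start of the gene, 5′ to 3′ on the gene's strand, from RefSeq's promoter table for GRCm38.p6. Acta2 lies at chr19:34255374-34255623 on the minus strand, Des at chr1:75360042-75360291 on the plus strand, Timp1 at chrX:20869916-20870165 on the plus strand and Col1a2 at chr6:4505368-4505617 on the plus strand. Capitals mark matches to the CArG box, the site bound by serum response factor at genes of smooth muscle, here with 1 base other than A or T allowed in its core.
Acta2: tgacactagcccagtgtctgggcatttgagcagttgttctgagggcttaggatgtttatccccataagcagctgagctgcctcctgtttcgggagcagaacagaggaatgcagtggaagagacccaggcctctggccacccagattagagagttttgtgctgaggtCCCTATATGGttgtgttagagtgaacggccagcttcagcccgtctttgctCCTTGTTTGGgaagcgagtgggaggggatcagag
Des: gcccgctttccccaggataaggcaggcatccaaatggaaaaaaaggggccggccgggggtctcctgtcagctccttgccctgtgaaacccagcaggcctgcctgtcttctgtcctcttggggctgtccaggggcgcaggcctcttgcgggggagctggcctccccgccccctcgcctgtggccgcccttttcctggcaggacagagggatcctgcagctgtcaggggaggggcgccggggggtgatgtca
Timp1: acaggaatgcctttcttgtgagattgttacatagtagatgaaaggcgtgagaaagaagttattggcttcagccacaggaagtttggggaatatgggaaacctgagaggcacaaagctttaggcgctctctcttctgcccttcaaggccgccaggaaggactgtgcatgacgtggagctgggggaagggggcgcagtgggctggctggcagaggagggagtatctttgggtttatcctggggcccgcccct
Col1a2: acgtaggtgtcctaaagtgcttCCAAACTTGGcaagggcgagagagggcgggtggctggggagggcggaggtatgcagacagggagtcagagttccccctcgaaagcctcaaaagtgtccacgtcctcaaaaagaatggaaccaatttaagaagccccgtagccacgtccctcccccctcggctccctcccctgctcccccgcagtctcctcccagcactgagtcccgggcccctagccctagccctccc

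Of the 39 members, 25 had a promoter in the table. Both strands were searched for the CArG box, with and without that 1 other base, for TGANTCA, the site of AP-1 factors, and for TATAAA, the core of many start sites. Matches to the CArG box in either form were found in 5 of the 25 members: Acta2, Col1a2, Col6a3, Mmp14 and Timp3. No member held the strict CArG form. TATAAA was found in Col3a1, Postn, Tnc, Vim and Tgfb2, and TGANTCA in Col6a1. Among all 32536 promoters of the same length, 8.59% held a CArG match of either form and 1.48% held the strict form. In the same windows 12.3% held TATAAA and 6.73% held TGANTCA. These shares count promoters, while the 5 of 25 counts genes, some of them with several start sites. The member with 2 CArG matches was Acta2, whose first bases lie 84 and 34 bases before the start. No member's window held matches to both the CArG box and TATAAA, so no overlap arose. The windows of Des and Timp1 held none of these motifs. These letters are a description of the windows and not of factor binding.

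No member passed the test in any comparison. With limma and Benjamini-Hochberg adjustment over all 14169 genes, 0 of 39 members had an adjusted p under 0.05 in Spink3-/- against Spink3+/+, where 0.0353% of all tested genes did. The same count was 0 in Spink3-/-XKI/+ against Spink3+/+ and 0 in Spink3-/- against Spink3-/-XKI/+, where 0.00706% of all genes passed in each. The lowest limma adjusted p of a member was 0.875, 0.478 and 0.596 in these comparisons. At an unadjusted limma p under 0.05, 1 member of Spink3-/- against Spink3+/+ remained (Mmp2, lower), beside 5.06% of all genes. In Spink3-/-XKI/+ against Spink3+/+ there were 4 (Acta2, Tagln, Timp1 and Tnc, with higher means), beside 7.57% of all genes. In Spink3-/- against Spink3-/-XKI/+ there were 3 (Pdgfra, Tgfb3 and Timp2, with lower means), beside 7.21%. All 3 comparisons draw on the same 6 arrays and each pair of them shares a genotype, so they are not independent of each other.

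Seen as a list, the members' median log2 difference was -0.02 in Spink3-/- against Spink3+/+, with 17 above and 22 below 0, beside a median of -0.01 over all genes. It was 0.16 in Spink3-/-XKI/+ against Spink3+/+, with 28 above and 11 below 0, beside 0.04 over all genes. It was -0.16 in Spink3-/- against Spink3-/-XKI/+, with 9 above and 30 below 0, beside -0.04 over all genes. The SD of the members' median level between replicates, pooled over the 3 genotypes, was 0.13. In Spink3-/- against Spink3+/+ the arrays of the genotypes did not overlap for 7 members that were higher and 8 that were lower, which sets them beside 16.2% and 16.6% of all genes. In Spink3-/-XKI/+ against Spink3+/+ these counts were 18 and 4, beside 26.0% and 16.1% of all genes. In Spink3-/- against Spink3-/-XKI/+ they were 2 and 9, beside 13.1% and 21.4%. A log2 difference over 1 in size was found for 0 members in Spink3-/- against Spink3+/+ (2.39% of all genes), 5 members in Spink3-/-XKI/+ against Spink3+/+ (3.03%) and 0 members in Spink3-/- against Spink3-/-XKI/+ (2.73%).

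**Figure D1:**
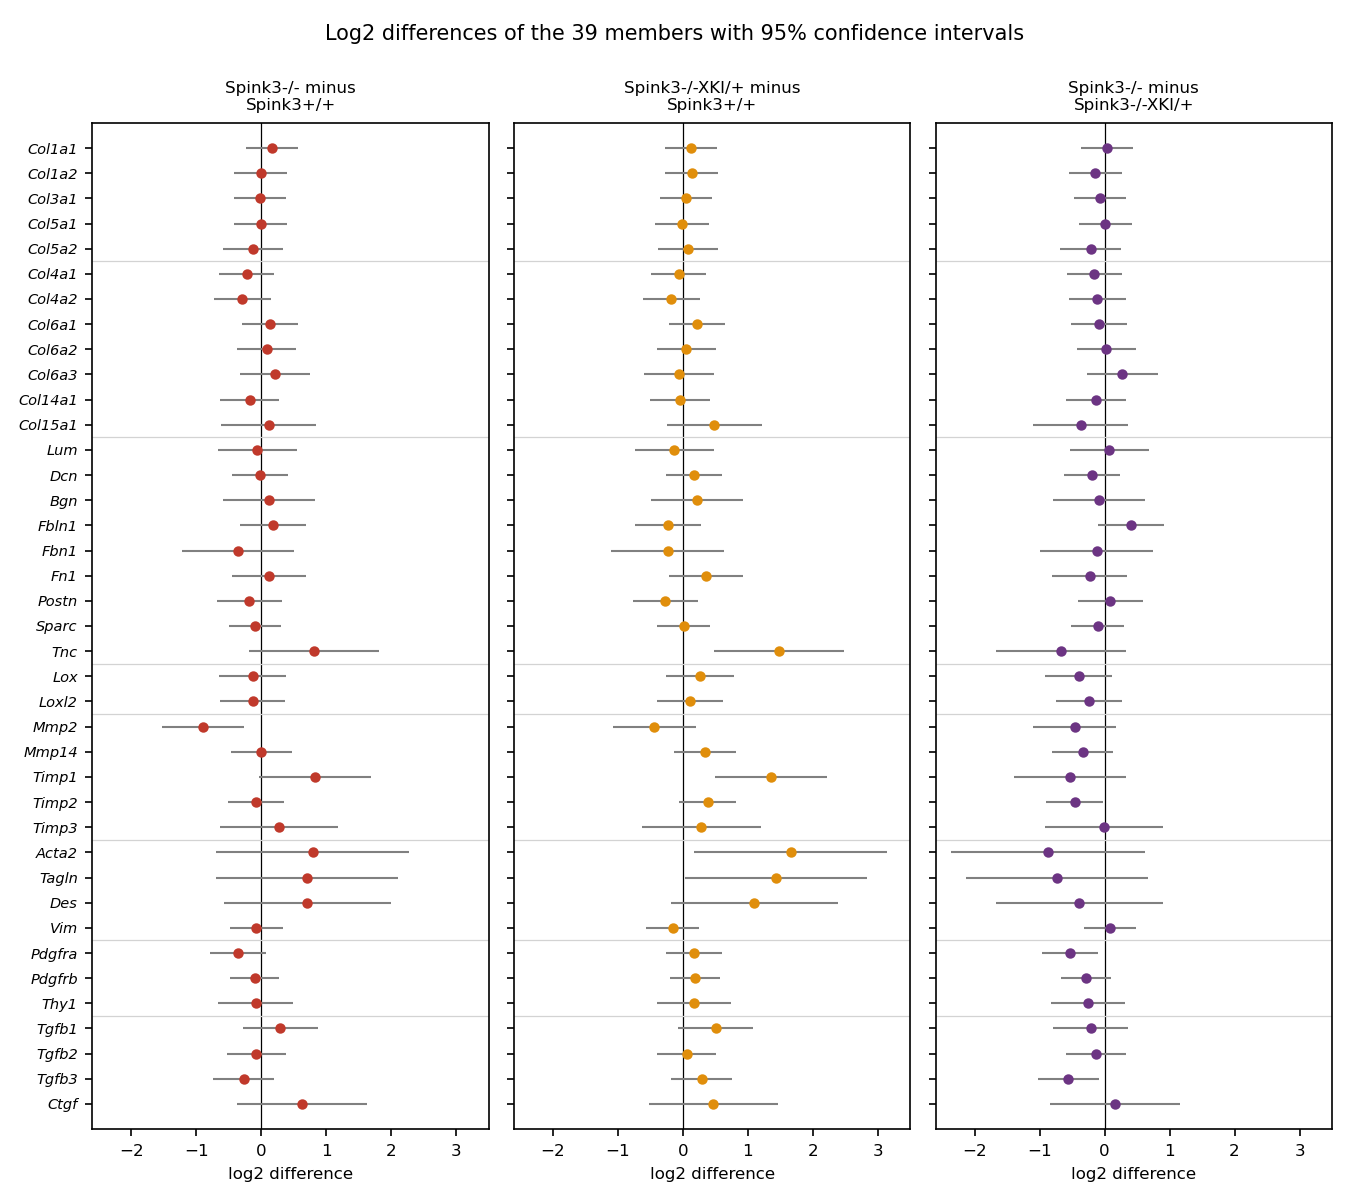
Log2 difference of each of the 39 members (points) with its 95% confidence interval from limma (horizontal lines, n = 2 arrays per genotype) in the 3 comparisons, with members grouped by role down the page. Most points lie within 0.5 of 0, while Acta2, Tagln, Des, Tnc and Timp1 lie above 1 in Spink3-/-XKI/+ against Spink3+/+ with wide intervals.

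The fibrillar collagens, which form the tensile fibres of the interstitial matrix, differed little. Col1a1, the alpha 1 chain of type I collagen (probe at chr11:94813115-94813174, plus strand, in mm9), had a level of 7.12 and 7.16 in Spink3-/- and 7.08 and 7.13 in Spink3-/-XKI/+, against 6.88 and 7.07 in Spink3+/+. All 4 Spink3-deficient arrays lay above both Spink3+/+ arrays, but the genotype means differed by no more than the Spink3+/+ arrays did from each other. The log2 difference was 0.16 (95% confidence interval -0.24 to 0.57) in Spink3-/- and 0.13 (-0.27 to 0.53) in Spink3-/-XKI/+ against Spink3+/+. Col3a1, the single chain of type III collagen (chr1:45405589-45405648, plus strand, mm9), was 6.79 and 6.69 in Spink3-/- and 6.83 and 6.78 in Spink3-/-XKI/+, against 6.68 and 6.84 in Spink3+/+. Its genotypes overlapped throughout, with log2 differences of -0.02 (-0.42 to 0.37) and 0.04 (-0.36 to 0.44) against Spink3+/+. For Col1a2, the alpha 2 chain of type I collagen whose promoter is printed above, the levels were 8.19 and 8.33 in Spink3-/-, 8.33 and 8.48 in Spink3-/-XKI/+, and 8.22 and 8.32 in Spink3+/+. Col5a1 and Col5a2, chains of the type V collagen that sits within type I fibrils, had log2 differences from -0.22 to 0.08 in the 3 comparisons. Over these 5 genes no difference exceeded 0.22 in size, and the intervals of Col1a1, Col1a2 and Col3a1 against Spink3+/+ reach no further than 0.57 in either direction.

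Collagens of the basement membrane and of beaded and associated filaments gave small differences as well. Col4a1 and Col4a2, which pair to form type IV collagen under epithelia and vessels, both had their lowest level in Spink3-/- replicate 2. Col4a2 was 2.84 and 2.63 in Spink3-/- and 2.81 and 2.88 in Spink3-/-XKI/+, against 2.91 and 3.15 in Spink3+/+. It was 1 of 2 members for which all 4 Spink3-deficient arrays lay below both Spink3+/+ arrays, a pattern that 6.13% of all genes showed, with a log2 difference of -0.30 (95% confidence interval -0.73 to 0.14) in Spink3-/-. For Col4a1 the log2 differences against Spink3+/+ were -0.23 in Spink3-/- and -0.07 in Spink3-/-XKI/+. Col6a1, Col6a2 and Col6a3, the chains of type VI beaded filaments, lay between -0.06 and 0.21 against Spink3+/+ by their brightest probes. The second kept probe of Col6a2, above background on all 6 arrays, gave 0.19 in Spink3-/- and 0.61 in Spink3-/-XKI/+. Col14a1, a fibril-associated collagen, had differences of -0.18 in Spink3-/- and -0.04 in Spink3-/-XKI/+, and its second kept probe gave -0.38 and -0.26. Col15a1, which links basement membranes to the interstitium, varied more: 0.44 and 1.00 in Spink3-/-, 0.74 and 1.44 in Spink3-/-XKI/+, and 0.55 and 0.66 in Spink3+/+. Its second replicate was the higher in each genotype, and its interval in Spink3-/-XKI/+ against Spink3+/+ ran from -0.25 to 1.22.

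Among the 9 proteoglycans and matrix glycoproteins, Tnc stood apart. Tnc encodes tenascin C, a glycoprotein of developing and injured matrix (chr4:63674248-63675011, minus strand, mm9). Its level was -0.54 and -1.15 in Spink3-/- and -0.74 and 0.38 in Spink3-/-XKI/+, against -1.85 and -1.47 in Spink3+/+, where 1 of the 2 arrays had the probe well above background. The 4 Spink3-deficient arrays lay above both Spink3+/+ arrays. The log2 difference was 0.81 (-0.19 to 1.82) in Spink3-/- and 1.48 (0.48 to 2.48) in Spink3-/-XKI/+, with limma adjusted p = 0.494 in Spink3-/-XKI/+ against Spink3+/+. Between the 2 Spink3-/-XKI/+ arrays Tnc differed by 1.12, a gap that 2.68% of all genes matched or exceeded.

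Fn1, the fibronectin to which cells and collagens bind, was 4.31 and 3.75 in Spink3-/- and 4.18 and 4.34 in Spink3-/-XKI/+, against 3.80 and 4.02 in Spink3+/+ (chr1:71632116-71632175, minus strand, mm9). Spink3-/- replicate 1 was among the high arrays and replicate 2 was the lowest of all. Without Spink3-/- replicate 1 the log2 difference of Spink3-/- against Spink3+/+ was -0.16, against 0.12 with it. The liver also makes fibronectin, for the plasma, and markers of liver differed between these samples: the summed level of 8 liver genes was 59.6 to 68.0 in Spink3-/- and 27.0 to 39.4 in Spink3-/-XKI/+, against 26.7 to 28.8 in Spink3+/+, in multiples of the 75th percentile. All 8 had a higher mean in Spink3-/- than in Spink3+/+, beside 49.1% of all genes, and the median of their log2 differences was 1.94. The 8 gave no limma adjusted p under 0.05 in any comparison. Their lowest was 0.425 in Spink3-/- against Spink3+/+ and 0.238 in Spink3-/- against Spink3-/-XKI/+. Afp, the fetal plasma protein of liver and yolk sac, was 3.33 and 2.24 in Spink3-/-, 0.32 and 2.18 in Spink3-/-XKI/+, and 0.32 and 0.64 in Spink3+/+. Of the 8 liver genes, 6 were well above background on every array. Their part in the levels of Fn1 was not tested.

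The other proteoglycans and glycoproteins had smaller differences than Tnc in each comparison. Dcn, the collagen-binding proteoglycan decorin, was 7.18 and 6.99 in Spink3-/- and 7.40 and 7.16 in Spink3-/-XKI/+, against 7.07 and 7.15 in Spink3+/+. Lum (lumican), Bgn (biglycan), Fbln1 (fibulin 1), Postn (periostin) and Sparc, a secreted collagen chaperone, had log2 differences from -0.27 to 0.21 against Spink3+/+. Fbln1 was 2.04 and 2.11 in Spink3-/- and 1.76 and 1.57 in Spink3-/-XKI/+, higher without overlap, as were 13.1% of all genes. That log2 difference was 0.41 (-0.10 to 0.92), and the second kept probe of Fbln1 gave 0.11. Fbn1, the fibrillin of elastic microfibrils, was 0.98 and -0.09 in Spink3-/-, so its replicates differed by 1.06, which 4.28% of all genes matched or exceeded. It was 0.73 and 0.40 in Spink3-/-XKI/+ and 0.75 and 0.86 in Spink3+/+. Lox and Loxl2, the enzymes that cross-link collagen and elastin, were both lowest in Spink3-/- replicate 2, with log2 differences of -0.13 each in Spink3-/- and of 0.26 and 0.10 in Spink3-/-XKI/+ against Spink3+/+.

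The matrix proteases and their inhibitors held the members furthest from 0 in Spink3-/- against Spink3+/+. Mmp2, the gelatinase that fibroblasts secrete (chr8:95376840-95376899, plus strand, mm9), was 0.09 and -0.35 in Spink3-/- and 0.61 and 0.05 in Spink3-/-XKI/+, against 0.69 and 0.85 in Spink3+/+. All 4 Spink3-deficient arrays lay below both Spink3+/+ arrays. The log2 difference was -0.90 (95% confidence interval -1.53 to -0.26, limma adjusted p = 0.875) in Spink3-/- and -0.44 (-1.08 to 0.20) in Spink3-/-XKI/+. Within the slide row that Spink3-/- replicate 1 shared with both Spink3+/+ arrays its difference was -0.68. In the slide column that Spink3-/- replicate 2 shared with Spink3+/+ replicate 1 it was -1.04. Mmp14, the membrane protease that activates the Mmp2 proenzyme, was 1.09 and 1.25 in Spink3-/- and 1.33 and 1.69 in Spink3-/-XKI/+, against 1.21 and 1.13 in Spink3+/+.

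Timp1, a secreted inhibitor of matrix metalloproteases that many cells make after injury (chrX:20451802-20451861, plus strand, mm9), was 2.22 and 2.44 in Spink3-/- and 2.33 and 3.42 in Spink3-/-XKI/+, against 1.50 and 1.52 in Spink3+/+. Every Spink3-deficient array stood well above the Spink3+/+ arrays, which were almost equal. The log2 difference was 0.82 (-0.04 to 1.68) in Spink3-/- and 1.36 (0.50 to 2.22) in Spink3-/-XKI/+, a fold of 1.77 and of 2.57, with limma adjusted p = 0.987 and limma adjusted p = 0.478 against Spink3+/+. In the parts of the slide that allow the comparison, the difference of Spink3-/- for Timp1 was 0.71 within slide row 1 and 0.94 within column 1. For Spink3-/-XKI/+ within column 2 it was 0.81. Spink3-/-XKI/+ replicate 2, the highest array, shared neither row nor column with a Spink3+/+ array, so genotype and position cannot be told apart there. Timp2, an inhibitor that also takes part in Mmp2 activation, was 5.76 and 5.91 in Spink3-/- and 6.17 and 6.42 in Spink3-/-XKI/+, with no overlap between them, and 5.86 and 5.98 in Spink3+/+. Its log2 difference in Spink3-/- against Spink3-/-XKI/+ was -0.46 (-0.89 to -0.03, limma adjusted p = 0.650). Timp3, the matrix-bound inhibitor, was 3.85 and 3.97 in Spink3-/-, 3.32 and 4.51 in Spink3-/-XKI/+, and 3.62 and 3.65 in Spink3+/+, so Spink3-/-XKI/+ held both its highest and its lowest array.

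**Figure D2:**
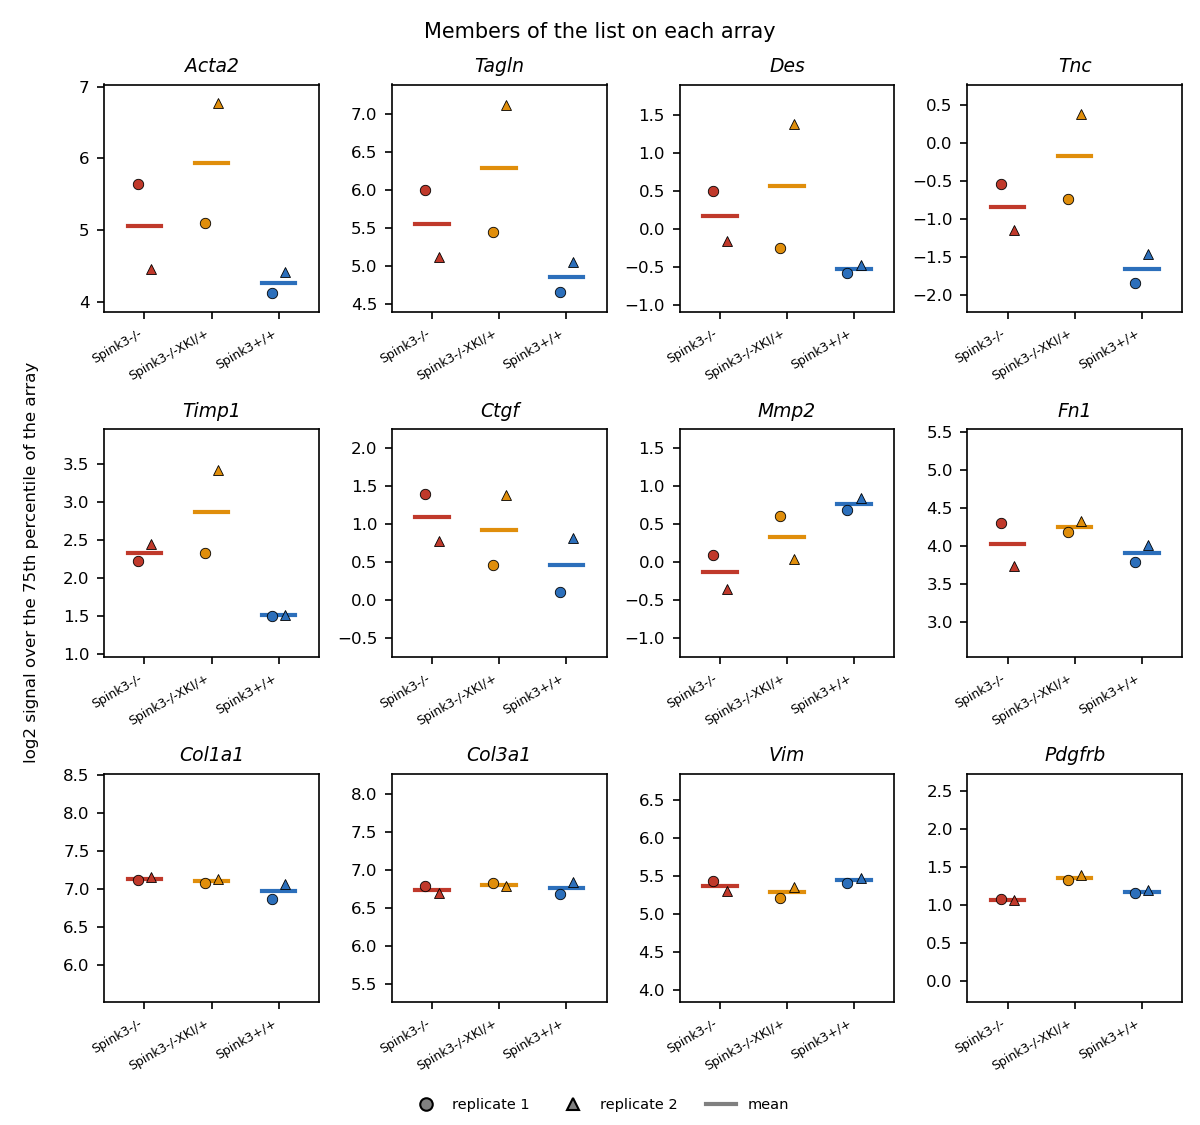
Level of 12 members on each of the 6 arrays, as log2 signal over the array's 75th percentile, with circles for replicate 1, triangles for replicate 2 and bars for genotype means; each panel has its own vertical range. Timp1 separates Spink3-/- and Spink3-/-XKI/+ from Spink3+/+ on every array, while Acta2, Tagln and Des spread widely within Spink3-/- and Spink3-/-XKI/+, and Col1a1, Col3a1, Vim and Pdgfrb stay close together.

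Of the 4 contractile and cytoskeletal members, Acta2, Tagln and Des had wide differences and a wide spread between replicates, and Vim had neither. Acta2, smooth muscle alpha actin (chr19:34316060-34316119, minus strand, mm9), was 5.65 and 4.47 in Spink3-/- and 5.10 and 6.77 in Spink3-/-XKI/+, against 4.12 and 4.42 in Spink3+/+. Spink3-/-XKI/+ replicate 2 was the highest array and Spink3-/- replicate 1 the next, while Spink3-/- replicate 2 stood just above the higher Spink3+/+ array. The log2 difference was 0.79 (95% confidence interval -0.70 to 2.28) in Spink3-/- and 1.66 (0.17 to 3.15) in Spink3-/-XKI/+, with limma adjusted p = 0.987 and limma adjusted p = 0.628 against Spink3+/+. Tagln, the actin-binding protein transgelin of smooth muscle (chr9:45738097-45738156, minus strand, mm9), was 6.00 and 5.11 in Spink3-/- and 5.45 and 7.12 in Spink3-/-XKI/+, against 4.66 and 5.05 in Spink3+/+. It ordered the 6 arrays exactly as Acta2 did, with a log2 difference of 0.70 (-0.70 to 2.10) in Spink3-/- and 1.44 (0.04 to 2.83) in Spink3-/-XKI/+. Des, the intermediate filament desmin of muscle and stellate cells (chr1:75363404-75363629, plus strand, mm9), was 0.50 and -0.16 in Spink3-/- and -0.25 and 1.38 in Spink3-/-XKI/+, against -0.58 and -0.49 in Spink3+/+. Its differences of 0.71 (-0.58 to 1.99) and 1.10 (-0.19 to 2.38) again rest on the same pair of high arrays.

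Vim, the intermediate filament vimentin that mesenchymal cells have in common, did not follow them. Its level was 5.44 and 5.30 in Spink3-/- and 5.21 and 5.36 in Spink3-/-XKI/+, against 5.41 and 5.48 in Spink3+/+ (chr2:13504232-13504291, plus strand, mm9). All of its values lay between 5.21 and 5.48, and its log2 difference was -0.07 (-0.48 to 0.33) in Spink3-/- and -0.16 (-0.56 to 0.24) in Spink3-/-XKI/+ against Spink3+/+.

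The replicate gaps of the contractile members were wide for these arrays. Replicate 1 of Spink3-/- exceeded replicate 2 by 1.18 for Acta2, 0.88 for Tagln and 0.66 for Des, gaps that 3.32%, 6.97% and 14.7% of all genes matched or exceeded. Replicate 2 of Spink3-/-XKI/+ exceeded replicate 1 by 1.67, 1.67 and 1.63, which 0.783%, 0.769% and 0.868% of all genes matched or exceeded. Without Spink3-/-XKI/+ replicate 2 the log2 difference of Spink3-/-XKI/+ against Spink3+/+ was 0.83 for Acta2, 0.60 for Tagln, 0.28 for Des, 0.82 for Timp1 and 0.92 for Tnc. The count of members over 1 in that comparison was then 0, against 5 with it. Without Spink3-/- replicate 2, in contrast, 4 members were over 1 in Spink3-/- against Spink3+/+ (Acta2, Des, Tagln and Tnc), against 0 with it.

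The high arrays also shared a place on the slide. Spink3-/- replicate 1 and Spink3-/-XKI/+ replicate 2 lay in the same column of the slide, and no Spink3+/+ array lay there. They were the 2 highest arrays for 6 of 39 members (Acta2, Ctgf, Des, Fn1, Tagln and Tnc), or 15.4%, beside 5.40% of all genes. The pair was picked out by the levels of Acta2, Tagln and Des, which are themselves among the 6, so this share is a description only. Away from that column, Acta2 in Spink3-/- replicate 2 exceeded Spink3+/+ replicate 1 by 0.34 in their column, and Spink3-/-XKI/+ replicate 1 exceeded Spink3+/+ replicate 2 by 0.68 in theirs. For Tagln these differences were 0.46 and 0.40, and for Des 0.43 and 0.23. Within slide row 1, which held Spink3-/- replicate 1 and both Spink3+/+ arrays, the difference of Spink3-/- was 1.38 for Acta2, 1.15 for Tagln and 1.03 for Des. Spink3-/-XKI/+ and Spink3+/+ shared no slide row, so that comparison has no value within a row.

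Some markers of smooth muscle that are not on the list moved with the contractile members. Of 12 smooth muscle and pericyte genes tested, 5 had these 2 arrays as their highest: Actg2, Cnn1, Myh11, Myl9 and Synpo2. That is 41.7%, beside 5.4% of all genes. Cald1, a gene of smooth muscle, did not, nor did Cspg4, Abcc9, Notch3, Kcnj8, Rgs5 and Mcam. Actg2, the actin of visceral smooth muscle, was 5.60 and 3.72 in Spink3-/- and 4.64 and 7.41 in Spink3-/-XKI/+, against 2.52 and 2.79 in Spink3+/+. Cnn1, the actin-binding calponin of smooth muscle, was 3.94 and 2.07 in Spink3-/- and 3.26 and 5.21 in Spink3-/-XKI/+, against 1.02 and 1.30 in Spink3+/+. Myh11, the smooth muscle myosin heavy chain, was 2.48 and 1.05 in Spink3-/- and 2.09 and 4.59 in Spink3-/-XKI/+, against 0.38 and 0.48 in Spink3+/+. Their log2 differences in Spink3-/-XKI/+ against Spink3+/+ were 3.37, 3.08 and 2.91, and none of the 12 had a limma adjusted p under 0.05 in any comparison.

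Acta2, Tagln and Tnc of the list and Myh11, Actg2, Cnn1 and Myl9 outside it ordered the 6 arrays identically, an order that 0.381% of the 14167 genes with a value on every array showed. The order was taken from Acta2 itself. The summed level of the 12 genes was 109 to 217 in Spink3-/- and 163 to 496 in Spink3-/-XKI/+, against 89.6 to 103 in Spink3+/+. Of the 12, 10 were well above background on all arrays. Pericyte genes did not share that order of the arrays, nor did Cald1 and Synpo2. Over the whole list of 12, with Myh11, Actg2, Cnn1 and Myl9 included, Spink3-/-XKI/+ replicate 2 was the highest array for 7. That is 58.3%, beside 23.1% of all genes. Notch3, a receptor of vessel-wall cells, was 1.62 and 1.37 in Spink3-/-, 2.07 and 1.69 in Spink3-/-XKI/+, and 1.76 and 1.97 in Spink3+/+. Mcam, an adhesion protein of pericytes and endothelium, kept between 4.58 and 4.73 on the 6 arrays. Markers of striated muscle, which makes desmin too, had low sums of 1.35 to 2.03 in Spink3-/- and 1.66 to 3.71 in Spink3-/-XKI/+, against 0.979 to 1.38 in Spink3+/+, over 4 genes of which 2 were above background on every array. These 4 genes gave no limma adjusted p under 0.05 in any comparison. The defining gene Acta1 was 0.26 and -1.07 in Spink3-/-, -0.40 and 0.91 in Spink3-/-XKI/+, and -1.10 and -0.55 in Spink3+/+. The part of smooth muscle, striated muscle and slide position in the levels of Acta2, Tagln and Des was not tested.

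**Figure D3:**
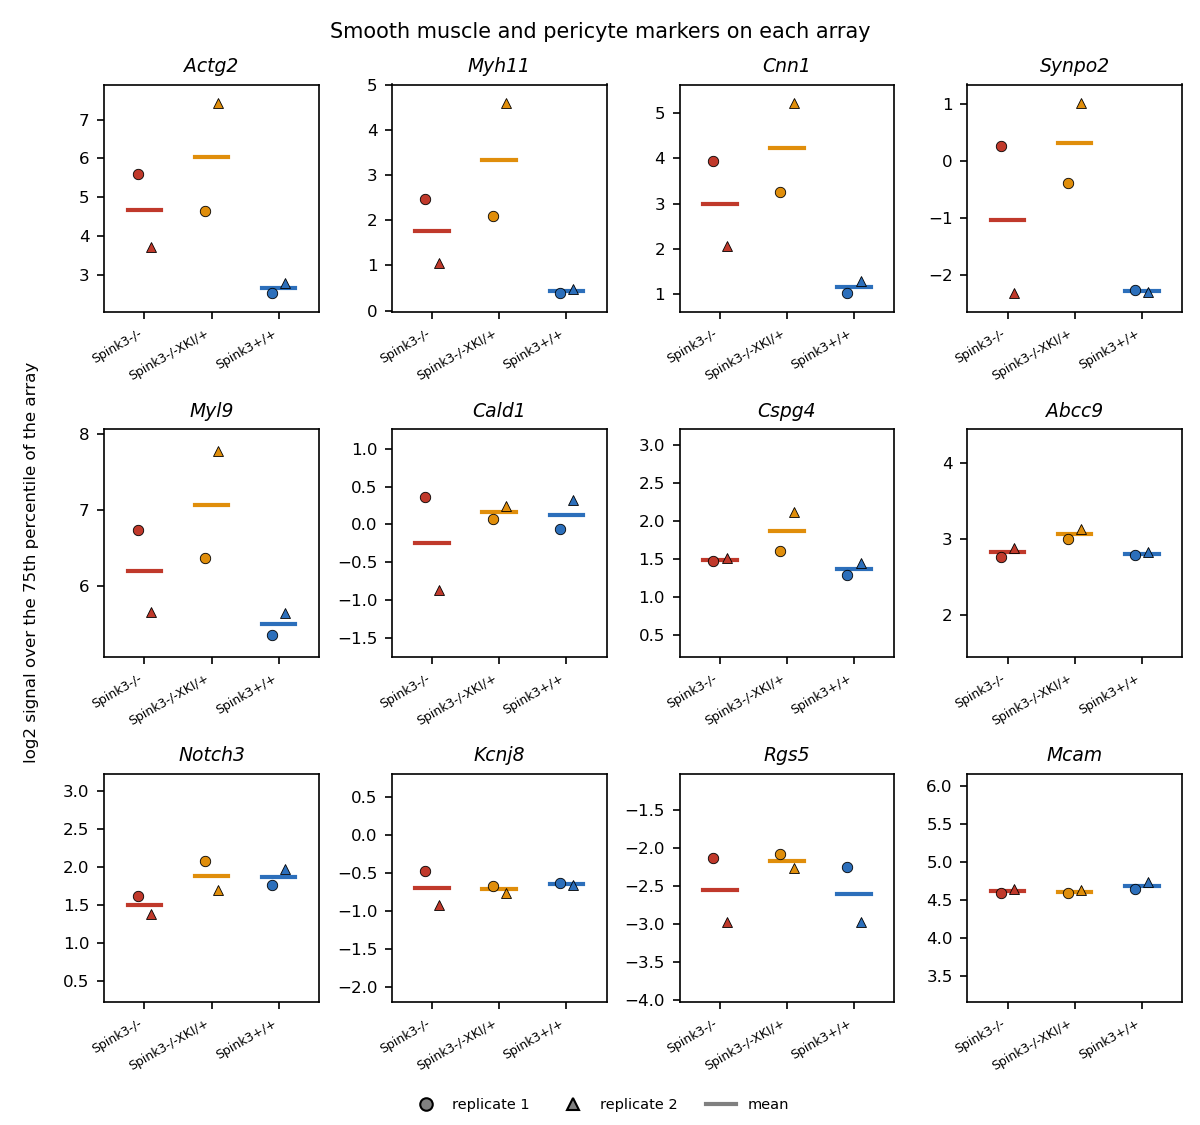
Level of 12 smooth muscle and pericyte genes on each of the 6 arrays, as log2 signal over the array's 75th percentile, with circles for replicate 1, triangles for replicate 2 and bars for genotype means; each panel has its own vertical range. Actg2, Myh11, Cnn1, Synpo2 and Myl9 are highest in Spink3-/-XKI/+ replicate 2 and next in Spink3-/- replicate 1. Cald1, Cspg4, Abcc9, Notch3, Kcnj8, Rgs5 and Mcam do not show that pattern.

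Of the 3 surface proteins, Pdgfra and Pdgfrb had lower levels without overlap in Spink3-/- against Spink3-/-XKI/+ (66.7%, beside 21.4% of all genes). Thy1 overlapped, and none of the 3 passed the adjusted test. Pdgfra, the platelet-derived growth factor receptor of fibroblasts, was 0.11 and -0.16 in Spink3-/- and 0.56 and 0.43 in Spink3-/-XKI/+ (chr5:75593888-75593947, plus strand, mm9). The Spink3+/+ arrays lay between them at 0.35 and 0.31. The log2 difference in Spink3-/- against Spink3-/-XKI/+ was -0.53 (95% confidence interval -0.96 to -0.09, limma adjusted p = 0.596). Pdgfrb, the receptor of stellate cells and pericytes, was 1.08 and 1.06 in Spink3-/- and 1.33 and 1.39 in Spink3-/-XKI/+, and 1.15 and 1.19 in Spink3+/+. Its genotypes did not overlap in any of the comparisons, though all 6 arrays lay between 1.06 and 1.39, and its log2 difference in Spink3-/- against Spink3-/-XKI/+ was -0.29 (-0.67 to 0.09). Thy1, a surface glycoprotein of fibroblasts and other cells, was 3.36 and 3.53 in Spink3-/-, 3.43 and 3.98 in Spink3-/-XKI/+, and 3.66 and 3.41 in Spink3+/+, and its genotypes overlapped.

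Tgfb3, a transforming growth factor beta ligand (chr12:87397804-87397863, minus strand, mm9), was 1.75 and 1.52 in Spink3-/- and 2.03 and 2.36 in Spink3-/-XKI/+, with 1.90 and 1.92 in Spink3+/+ between them. The log2 difference in Spink3-/- against Spink3-/-XKI/+ was -0.56 (-1.03 to -0.09, limma adjusted p = 0.609). Tgfb1, the ligand best known for activating stellate cells (chr7:26489877-26489936, plus strand, mm9), was -0.50 and -0.10 in Spink3-/- and -0.18 and 0.00 in Spink3-/-XKI/+, against -0.81 and -0.37 in Spink3+/+. Its log2 difference was 0.29 (-0.29 to 0.87) in Spink3-/- and 0.50 (-0.08 to 1.08) in Spink3-/-XKI/+ against Spink3+/+. Tgfb2, the remaining ligand, lay between -0.13 and 0.05 in the 3 comparisons by its brightest probe. Its second kept probe, also above background on all 6 arrays, gave 0.54 in Spink3-/-XKI/+ against Spink3+/+ and -0.60 in Spink3-/- against Spink3-/-XKI/+.

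Ctgf, connective tissue growth factor, is a secreted matrix-associated protein induced by transforming growth factor beta and by mechanical load, and is listed by RefSeq as Ccn2. Its level was 1.39 and 0.78 in Spink3-/- and 0.47 and 1.39 in Spink3-/-XKI/+, against 0.10 and 0.82 in Spink3+/+ (chr10:24318281-24318340, plus strand, mm9). The genotypes overlapped, since the Spink3+/+ arrays themselves lay far apart, with log2 differences of 0.63 (-0.37 to 1.62) in Spink3-/- and 0.47 (-0.53 to 1.46) in Spink3-/-XKI/+. Within the slide column shared by Spink3-/-XKI/+ replicate 1 and Spink3+/+ replicate 2 its difference was -0.35.

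**Figure D4:**
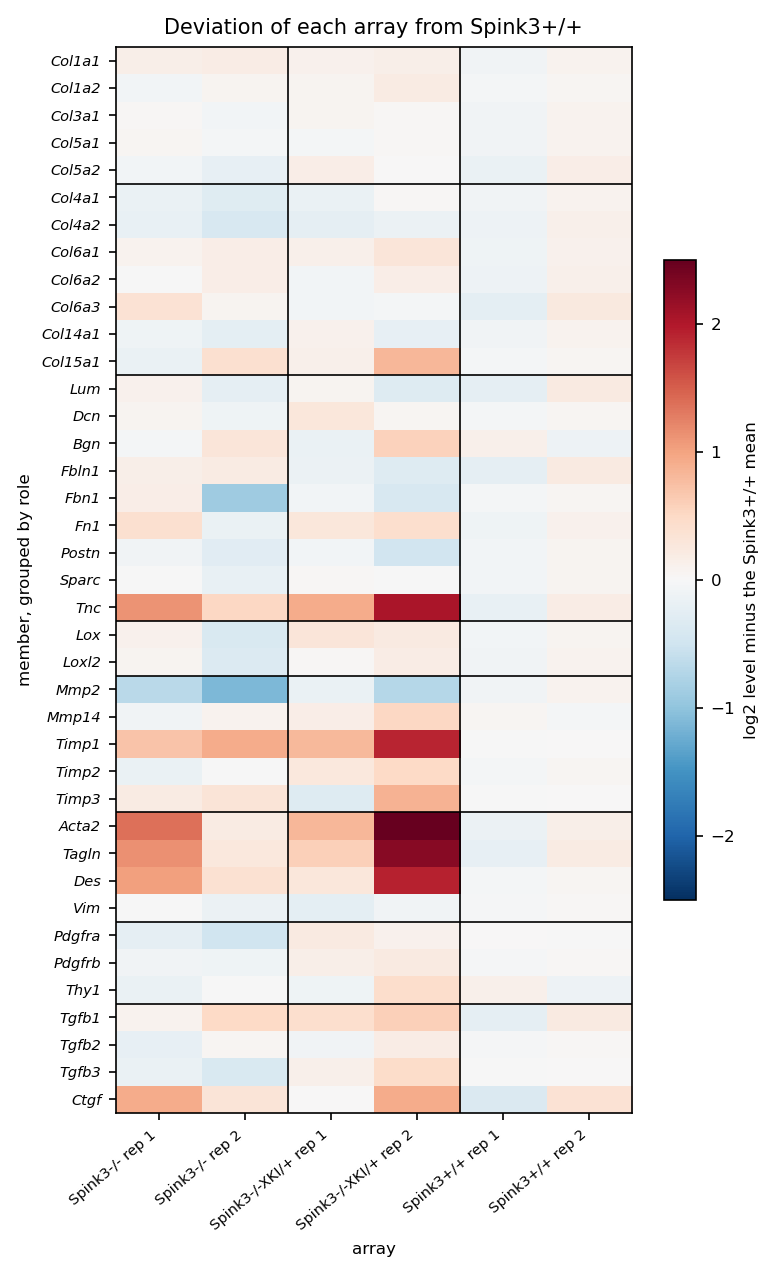
Log2 level of each of the 39 members on each array minus the mean of the 2 Spink3+/+ arrays, with members grouped by role down the page and arrays across it; red is above and blue below that mean. The strongest red lies in Spink3-/-XKI/+ replicate 2 for Acta2, Tagln, Des, Tnc and Timp1, and the strongest blue in Spink3-/- replicate 2 for Mmp2.

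Across the list, some arrays held more of the extremes than others. Each gene's highest and lowest value falls on 1 array by definition, so these counts do not weigh arrays against genotypes. Spink3-/-XKI/+ replicate 2 was the highest array for 20 of 39 members, or 51.3%, beside 23.1% of all genes. Spink3-/- replicate 2 was the lowest for 14 members and Spink3+/+ replicate 1 for 13, beside 16.6% and 18.3% of all genes. For 6 members all 4 Spink3-deficient arrays lay above both Spink3+/+ arrays: Acta2, Col1a1, Des, Tagln, Timp1 and Tnc. That pattern was shown by 8.26% of all genes. Most members were read by 1 probe, and among the 8 with several kept probes, 3 had probes of opposite sign in a comparison (Col6a2, Loxl2 and Timp2), in each case by less than 1 log2 unit on either side.

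Genes that work with the members gave no call either. Of 17 genes for collagen processing and secretion, 0 had a limma adjusted p under 0.05 in any comparison, and at an unadjusted p under 0.05 there were 0 in each comparison with Spink3+/+ and 2 in Spink3-/- against Spink3-/-XKI/+ (11.8%, beside 7.21% of all genes). Their median log2 differences were 0.05 in Spink3-/- and 0.08 in Spink3-/-XKI/+ against Spink3+/+. Plod2, a lysyl hydroxylase of collagen telopeptides, was 1.51 and 1.06 in Spink3-/- and 1.13 and 1.75 in Spink3-/-XKI/+, against 0.85 and 0.86 in Spink3+/+, and ordered the arrays as Acta2 did. Adamts2, which removes the amino-terminal propeptide of fibrillar procollagen, was 2.69 and 2.54 in Spink3-/- and 2.99 and 3.31 in Spink3-/-XKI/+, with 2.78 and 2.99 in Spink3+/+.

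Signalling genes of the transforming growth factor beta and platelet-derived growth factor pathways also gave 0 of 17 by the limma adjusted p, with 3 at an unadjusted p under 0.05 in Spink3-/- against Spink3+/+ (17.6%, beside 5.06% of all genes), 0 in Spink3-/-XKI/+ against Spink3+/+ and 2 in Spink3-/- against Spink3-/-XKI/+ (11.8%, beside 7.21%). Genes that were not above background on every array had wider differences than those given below. In Spink3-/- against Spink3+/+, 2 of the 17 were over 1 in size, at -1.41 and 1.73 (11.8%, beside 2.39% of all genes). In Spink3-/-XKI/+ against Spink3+/+ there was 1, at 1.28 (5.88%, beside 3.03%). Ltbp2 and Thbs1 are given because they had the widest differences of those well above background on all 6 arrays. These were 0.94 for Ltbp2 in Spink3-/-XKI/+ and 0.83 for Thbs1 in Spink3-/-, each against Spink3+/+. Ltbp2, a latent transforming growth factor beta binding family protein of elastic matrix, was 0.60 and 0.61 in Spink3-/- and 0.97 and 1.92 in Spink3-/-XKI/+, against 0.05 and 0.98 in Spink3+/+. Thbs1, thrombospondin 1, which activates latent transforming growth factor beta, was 1.61 and 0.10 in Spink3-/- and -0.23 and 0.48 in Spink3-/-XKI/+, against -0.34 and 0.38 in Spink3+/+, so that Spink3-/- replicate 1 alone was high.

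Other matrix genes numbered 27, of which 0 passed by the limma adjusted p. At an unadjusted limma p under 0.05 there was 1 in Spink3-/- against Spink3+/+ (3.7%, beside 5.06% of all genes). There were 2 in Spink3-/-XKI/+ against Spink3+/+ (7.41%, beside 7.57%) and 4 in Spink3-/- against Spink3-/-XKI/+ (14.8%, beside 7.21%). In the last of these comparisons 24 of the 27 were lower and 3 higher (11.1% higher, beside 42.7% of all genes), and 13 were lower without overlap (48.1%, beside 21.4% of all genes), with a median of -0.16, the same as that of the 39 members. Lama2, the laminin alpha chain of muscle and mesenchymal basement membrane, was 0.30 and 0.27 in Spink3-/- and 1.12 and 0.95 in Spink3-/-XKI/+, with 0.98 and 0.91 in Spink3+/+. Fbln2, a fibulin of elastic fibres and basement membranes, was 4.70 and 4.57 in Spink3-/- and 5.10 and 5.22 in Spink3-/-XKI/+, with 4.64 and 4.82 in Spink3+/+.

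Markers of stellate cells outside the list gave no call. Of 9 listed, 5 were tested, with median log2 differences of 0.06 in Spink3-/- and 0.15 in Spink3-/-XKI/+ against Spink3+/+ and a summed level of 63.0 to 73.0 in Spink3-/- and 67.6 to 72.8 in Spink3-/-XKI/+, against 56.2 to 65.8 in Spink3+/+. Ngfr, a neurotrophin receptor, was 0.64 and 0.34 in Spink3-/- and 1.05 and 1.04 in Spink3-/-XKI/+, against 0.11 and 0.74 in Spink3+/+. Fabp4, a fatty acid binding protein of fat cells and capillary endothelium as well, was 3.77 and 3.92 in Spink3-/- and 3.63 and 3.57 in Spink3-/-XKI/+, against 4.15 and 4.24 in Spink3+/+. None of the 5 had a limma adjusted p under 0.05, and at an unadjusted p under 0.05 there were 3 in Spink3-/-XKI/+ against Spink3+/+, 2 with higher and 1 with a lower mean (60.0% of the list, beside 7.57% of all genes), and 0 in the other comparisons.

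Other cell types that border on mesenchyme were read from their own markers. The 7 mesothelial genes tested had median log2 differences of 0.17 in Spink3-/- and 0.28 in Spink3-/-XKI/+ against Spink3+/+, and summed levels of 56.1 to 58.3 in Spink3-/- and 55.4 to 67.9 in Spink3-/-XKI/+, against 46.9 to 50.6 in Spink3+/+. Krt19, a keratin of mesothelium and ducts, was 3.74 and 3.93 in Spink3-/- and 3.34 and 3.87 in Spink3-/-XKI/+, against 3.07 and 3.40 in Spink3+/+. Msln, mesothelin, was 4.21 and 4.30 in Spink3-/- and 4.54 and 4.93 in Spink3-/-XKI/+, against 4.31 and 4.06 in Spink3+/+. Upk3b, a uroplakin, was -0.50 and -1.72 in Spink3-/-, -0.97 and -1.23 in Spink3-/-XKI/+, and -1.57 and -0.88 in Spink3+/+. The 9 endothelial genes had medians of -0.17 in Spink3-/- and -0.10 in Spink3-/-XKI/+ against Spink3+/+, with Pecam1 at -0.38 and -0.28 in Spink3-/-, -0.60 and -0.36 in Spink3-/-XKI/+, and -0.28 and -0.52 in Spink3+/+. Cdh5, the cadherin of endothelial junctions, was 0.44 and -0.27 in Spink3-/- and 0.00 and -0.41 in Spink3-/-XKI/+, against 0.56 and 0.76 in Spink3+/+, while Kdr, a receptor for vascular endothelial growth factor, was 6.83 and 7.47 in Spink3-/- and 7.12 and 7.38 in Spink3-/-XKI/+, against 6.66 and 6.81 in Spink3+/+. The 8 acinar genes kept high sums, 7630 to 10400 in Spink3-/- and 8660 to 9020 in Spink3-/-XKI/+, against 8360 to 9780 in Spink3+/+. Pnlip, pancreatic lipase, was -1.95 and -1.73 in Spink3-/- and 0.96 and 0.36 in Spink3-/-XKI/+, with -0.07 and -0.79 in Spink3+/+. None of the mesothelial, endothelial and acinar genes had a limma adjusted p under 0.05. The part of these cell types in the members' levels was not tested.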

How the data were processed

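RNA of 6 whole-pancreas samples was hybridised to single-colour Agilent arrays, 1 array per sample. The deposited intensity values are processed spot signals of Agilent Feature Extraction 10.7.3.1, per the submitters' processing notes and the file headers, and are background-subtracted and detrended on a linear scale. The flags that mark spots well above background and outlier spots stand in the same deposited files. Probe coordinates are in mm9, per the file headers. Exon or UTR placement of probes was not analysed here.

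Levels are log2 intensity minus the log2 of the array's own 75th percentile. Spots marked as outliers were left out, and between 42.38% and 50.79% of spots were well above background. Probes that passed the background flag on both replicates of 1 or more genotypes were kept, 24820 in all (44.6%). RefSeq (49997 genes) named 26762 probes through their accession, 3819 through their symbol and 639 through an older symbol; 2044 kept the name in the files and 22417 had none. A gene was represented by its brightest kept probe, and 48 of 52 member probes were kept. The 3 comparisons came from a single limma 3.58.1 fit (R 4.3.3) over all 6 arrays, with 3 residual degrees of freedom, Benjamini-Hochberg adjustment over all genes and intervals at the 95% level. A self-test on simulated data was also run. Figures were drawn with matplotlib 3.10.9 (Python 3.11.15).

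The members, the 8 roles and 10 other lists were chosen with earlier results of these data known. Values on every array are given for Col1a1, Col3a1, Acta2, Vim, Pdgfrb, Fn1, Tgfb1 and Ctgf, for the 5 members with the largest difference in each comparison, and for up to 2 genes of each other list. Other genes were named after their values were seen. Alternatives covered the normalization, background correction, filter, probe choice, samples in the fit, replicate and slide blocks, and leaving out each array.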

Additional observations from a re-analysis of the deposited data

How the results depend on the processing

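No member was called by limma in any comparison under any of the 16 alternatives, whose lowest adjusted p for a member was 0.474 in Spink3-/- against Spink3+/+, 0.158 in Spink3-/-XKI/+ against Spink3+/+ and 0.440 in Spink3-/- against Spink3-/-XKI/+; at an unadjusted p under 0.05 the members numbered 0 to 4, 1 to 8 and 0 to 8. The members' medians moved by less than the spread between replicates in each. Of the differences of named members, 557 kept their direction and 16 turned; the cause was not tested. In Spink3-/- against Spink3+/+, Col3a1 gave 0.024 with the slide row as a block, 0.0018 with the slide column as a block, and from -0.11 to 0.056 when 1 array was left out, and Fn1 from -0.16 to 0.40. In Spink3-/-XKI/+ against Spink3+/+, Col3a1 gave -0.019 with quantile normalization, -0.0082 with the column as a block and from -0.038 to 0.12 when 1 array was left out, and Ctgf gave -0.013 with the column as a block. In Spink3-/- against Spink3-/-XKI/+, Ctgf gave -0.15 with the row as a block and from -0.30 to 0.62 when 1 array was left out, Col3a1 gave 0.010 with the column as a block, and with 1 array left out Fn1 ranged from -0.51 to 0.049, Tagln from -1.57 to 0.10 and Timp1 from -1.08 to 0.0061, both highest without Spink3-/-XKI/+ replicate 2. The column block was added after the data were seen.

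With the replicate number as a block, 0 members were called in each comparison and the members' median in Spink3-/- against Spink3+/+ was -0.02. Same-numbered arrays had deviations that correlated at -0.06, 0.03 and 0.20. These correlations cannot decide whether same-numbered samples share more than a number, because each genotype has so few arrays. With 1 array left out, the lone array of its genotype is assumed to vary like the others. The deposited series values equal the scanner values for every spot, so that alternative was not run. Dim probes limit what can be read: Tnc was not well above background on 1 Spink3+/+ array.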
